A study of Mus musculus with 4 samples.

Results

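The 34 genes described here encode the enzymes and transporters of glycolysis and of lactate export, and the sensors, factors and targets of the cellular response to low oxygen. They were listed by gene symbol, with no measured value in the rule, though earlier results of these data were known when the list was made, and are 34 of the 32285 genes in the count tables. The symbol Aldoa stood on 2 rows, of which the row ENSMUSG00000030695 was taken as the gene, and the other row was close to 0. The genes were read in 4 single-cell libraries of cultured mouse adipose cells, 1 library for each condition. DFAT cells were grown from mature adipocytes of iWAT, the inguinal subcutaneous depot, or of eWAT, the epididymal visceral depot, by ceiling culture, in which floating adipocytes attach to the upper wall of an inverted flask and lose their lipid. SVF cells, named ASPCs in the study, were the stromal vascular cells of the same depots after primary culture. All cells came from chow-fed C57BL/6J male mice with no transgene or drug treatment, and live cells were sorted with 7-AAD. How many mice went into each library is not given in the sources used here. By the study's methods the ceiling culture flasks were filled with medium until no air was left, an environment the methods call anoxic, and were turned back after the first days. SVF cells were plated in ordinary dishes, so the way of culture and the kind of cell cannot be told apart in any DFAT against SVF comparison.

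Glycolysis splits glucose to pyruvate in the cytosol and yields ATP without oxygen, and lactate dehydrogenase turns the pyruvate to lactate, which leaves the cell through monocarboxylate transporters. When oxygen is plentiful, prolyl hydroxylases of the EGLN family mark the alpha subunits of the hypoxia-inducible factors for degradation. When it is scarce the alpha subunits persist, pair with ARNT and raise the transcription of genes for glucose uptake, glycolysis, mitophagy and blood vessel growth, and also of EGLN genes themselves. Because that control acts on the protein, the mRNA of Hif1a or Epas1 does not report the activity of the factor.

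Cells were barcodes with 5000 to 75000 UMIs, 200 to 7500 genes and under 10% mitochondrial UMIs, which left 7629 iWAT DFAT, 6464 eWAT DFAT, 7424 iWAT SVF and 6745 eWAT SVF cells with a median of 22111 to 27617 UMIs. Between 13 and 20 cell barcodes were shared by each pair of libraries. All 11 ASPC marker genes were above 1 CPM in every library, and the 6 adipocyte markers summed to 23.1 CPM in iWAT DFAT cells, 96.2 in eWAT DFAT cells and at most 1.23 in SVF cells. Endothelial markers summed to 19.7 to 58.6 CPM, mesothelial to 5.95 to 119.6, immune to 2.35 to 50.7, pericyte to 8.88 to 20.9 and glial to 1.61 to 28.2. In iWAT the mesothelial sum was nearly all Krt19, with 70.7 of 71.3 CPM in SVF cells and 5.78 of 5.95 in DFAT cells. Levels are given as CPM, the UMIs of a gene per 1000000 UMIs of all cells of a library. With 1 library in each group there was no replicate, so no comparison below has a test, and every interval covers counting error only. A gene was called past the fold where its CPM differed by 1.5-fold or more and reached 5 CPM in the higher library. Ratios were higher for genes with longer introns in all 4 comparisons, from a median log2 ratio of -0.02 for genes with under 1000 intron bases to 0.30 for those with 100000 or more for iWAT against eWAT DFAT cells, and from -0.05 to 0.32 for iWAT DFAT against iWAT SVF cells. The medians went from 0.00 to 0.13 for iWAT against eWAT SVF cells and from 0.01 to 0.14 for DFAT against SVF cells of eWAT. The part of this trend in the ratios of single genes was not tested beyond the alternative given for it in the closing section.

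**Figure D1:**
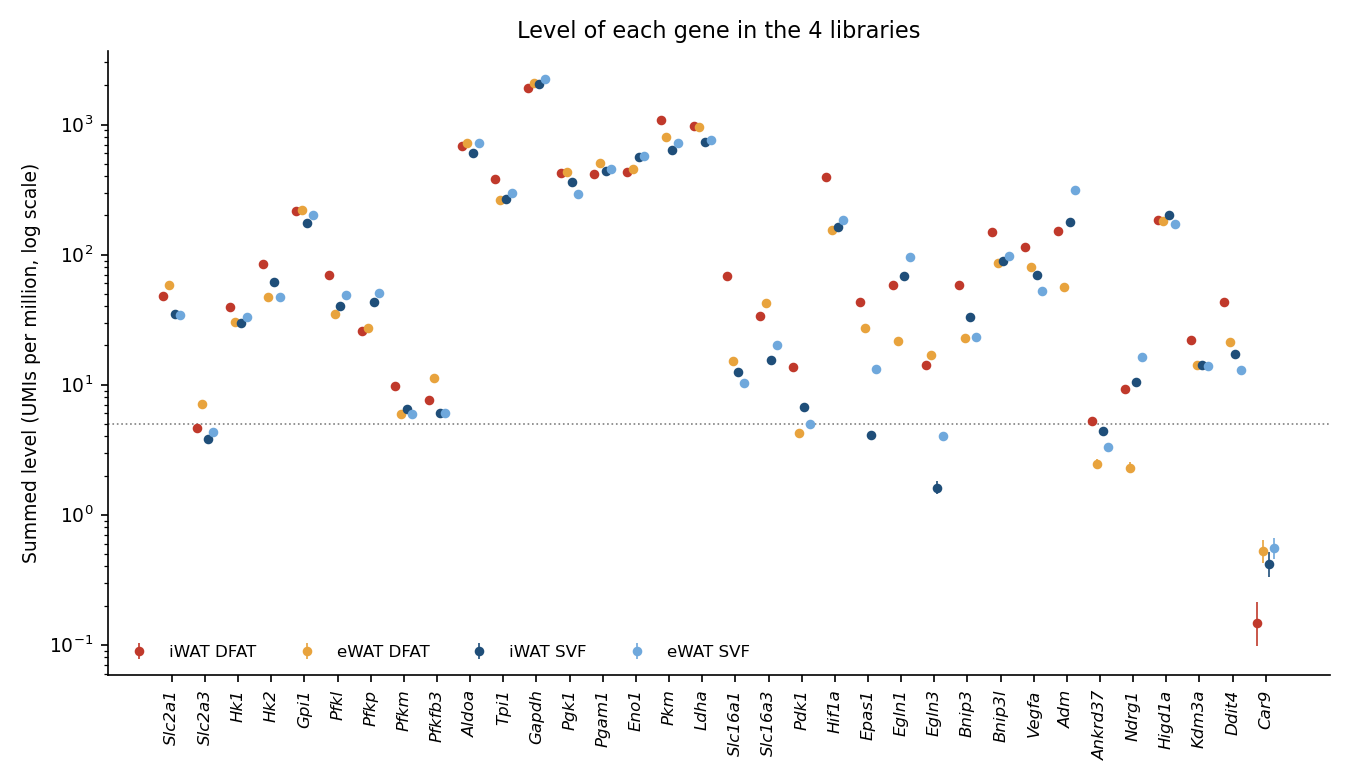
Summed level of each of the 34 genes in CPM on a log axis, with 1 point per library (iWAT DFAT, eWAT DFAT, iWAT SVF, eWAT SVF) and 95% Poisson intervals, which are mostly smaller than the points. The dotted line marks 5 CPM. Gapdh stayed between 1898 and 2228 CPM, whereas Slc16a1, Epas1, Egln1, Egln3, Adm and Ndrg1 spread over 4.43-fold to 10.5-fold between libraries, and Car9 stayed below 1 CPM.

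Among DFAT cells, the iWAT library held higher levels of the lactate transporter Slc16a1 and the kinase Pdk1 than the eWAT library. The alpha subunit Hif1a, the prolyl hydroxylase Egln1 and 7 of 10 hypoxia response genes were also higher, while most of the glycolytic enzymes did not pass the fold. Of the 34 genes, 15 were higher past the fold in iWAT DFAT cells and 1 was lower, whereas 17.6% of the 10384 genes tested were higher and 9.1% were lower. The 15 were Hk2, Pfkl, Pfkm, Slc16a1, Pdk1, Hif1a, Epas1, Egln1, Bnip3, Bnip3l, Adm, Ankrd37, Ndrg1, Kdm3a and Ddit4, and the 1 lower gene was Slc2a3, which was under the fold without cycling cells or with the mean of CPM per cell. With median-ratio scaling 12 genes were higher, without Epas1, Kdm3a and Ankrd37, of which Ankrd37 was below the minimum level. Epas1 was also under the fold with the mean of CPM per cell, and Epas1 and Kdm3a were under it relative to genes of the same intron-length class. The median log2 ratio of the 33 genes at the minimum level was 0.51, beside 0.09 for all genes tested. Car9 was the only one of the 34 below the minimum level in this comparison.

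In the same depot contrast of cultured SVF cells, none of the 34 genes was higher in iWAT past the fold, and Epas1, Adm and Ndrg1 were lower past the fold. Of all genes tested, 7.25% were higher and 7.44% were lower, so the 3 genes made up a share near the background. The median log2 ratio of the 30 genes at the minimum level was -0.08, beside 0.05 for the 10135 genes tested. Slc2a3, Egln3, Ankrd37 and Car9 were below the minimum level. Epas1, Adm and Ndrg1 were all higher in iWAT among DFAT cells and lower among SVF cells. Of the 9762 genes tested in both contrasts, 1.93% had this pair of directions. None of the 34 had the opposite pair, beside 0.604% of all genes. Whether the depot contrast differs between DFAT and SVF cells could not be tested with 1 library each.

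DFAT cells of iWAT held more Slc16a1, Slc16a3 and Pdk1, which are 3 of the 4 genes of the lactate and pyruvate branch, and more Hif1a, Epas1 and Egln3 than SVF cells of the same depot, while Ldha was 1.31-fold higher and did not pass the fold. Higher past the fold were 13 of the 34 genes (Pfkl, Pkm, Slc16a1, Slc16a3, Pdk1, Hif1a, Epas1, Egln3, Bnip3, Bnip3l, Vegfa, Kdm3a and Ddit4), beside 18.4% of all genes tested. Lower past the fold was Pfkp, beside 10.1% of all genes. The median log2 ratio was 0.45 for the 32 genes at the minimum level and 0.09 for the 10426 genes tested. Slc2a3 and Car9 were below the minimum level. This comparison shares the iWAT DFAT library with the comparison of DFAT cells between depots, so the 2 lists are not independent of each other, and each of the 4 libraries enters 2 of the comparisons.

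DFAT cells of eWAT differed from SVF cells of eWAT in both directions. Higher past the fold were 8 genes (Slc2a1, Slc2a3, Pfkfb3, Slc16a3, Epas1, Egln3, Vegfa and Ddit4), beside 15.0% of all genes tested. Slc2a3 was under the fold without cycling cells, at a log2 ratio of 0.51, and with the mean of CPM per cell, at 0.56. Lower past the fold were 4 genes (Pfkp, Egln1, Adm and Ndrg1), a share of the 34 close to the 13.1% of all genes. The median log2 ratio was 0.03 for the 31 genes at the minimum level and 0.07 for the 10298 genes tested. Pdk1, Ankrd37 and Car9 were below the minimum level. In both depots Slc16a3, Epas1, Egln3, Vegfa and Ddit4 were higher in DFAT cells and Pfkp was lower. The Vegfa call was lost under 4 of 10 alternatives in eWAT and under 1 in iWAT.

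**Figure D2:**
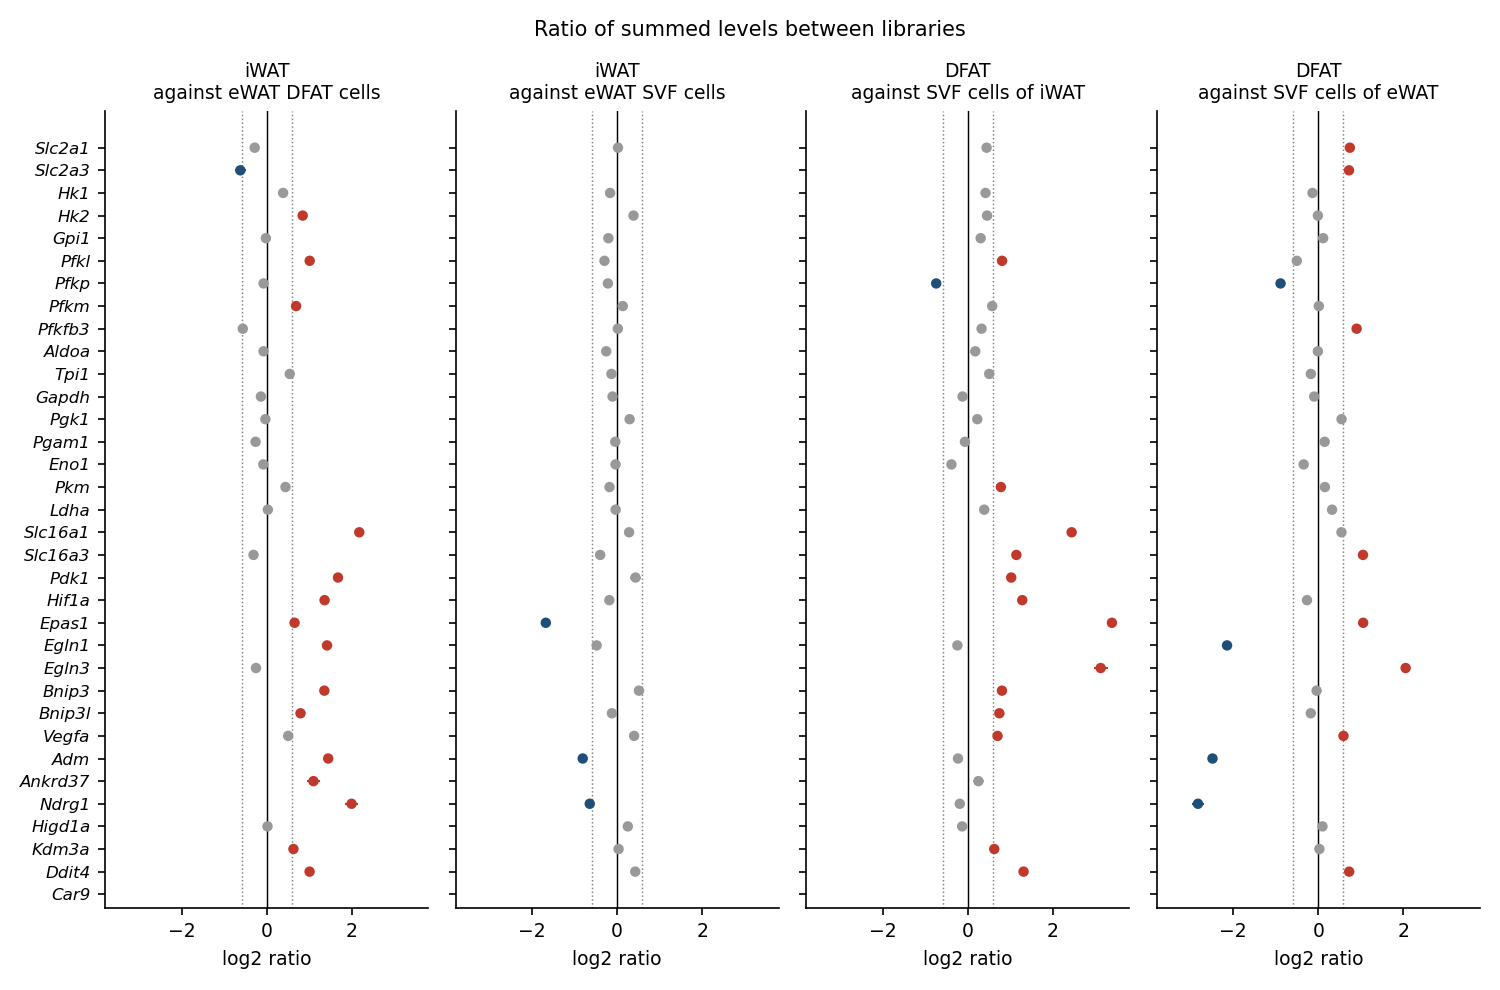
Log2 ratio of the summed levels of each gene in the 4 comparisons, with 95% counting intervals; points at 5 CPM or more in the higher library are drawn. Dotted lines mark 1.5-fold, red points are higher and blue points lower past that fold. The column of iWAT against eWAT DFAT cells holds 15 red points and 1 blue point, and that of iWAT against eWAT SVF cells holds 0 red and 3 blue.

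Glucose uptake was represented by Slc2a1 (GLUT1) and Slc2a3 (GLUT3), both facilitative transporters of the plasma membrane. Slc2a1 was at 47.7 CPM in iWAT DFAT cells, 57.9 in eWAT DFAT cells, 35.04 in iWAT SVF cells and 34.6 in eWAT SVF cells. Both DFAT libraries were thus above both SVF libraries, with a log2 ratio of 0.74 (95% counting interval 0.70 to 0.79) in eWAT and 0.44 in iWAT. Slc2a3 was a scarce transcript, at 4.66 CPM in iWAT DFAT cells, 7.15 in eWAT DFAT cells, 3.83 in iWAT SVF cells and 4.33 in eWAT SVF cells, and its level in eWAT DFAT cells was 1.54-fold that of iWAT DFAT cells. Slc2a4, the insulin-responsive transporter of mature adipocytes, was at most 0.356 CPM in any library.

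The 14 glycolytic enzymes summed to 5780.2 CPM in iWAT DFAT cells, 5631 in eWAT DFAT cells, 5298 in iWAT SVF cells and 5686 in eWAT SVF cells. The 4 sums were thus close together, with the lowest in iWAT SVF cells. Gapdh, which oxidises glyceraldehyde 3-phosphate, was at 1898 CPM in iWAT DFAT cells, 2084 in eWAT DFAT cells, 2065 in iWAT SVF cells and 2228 in eWAT SVF cells, and Aldoa, Pgam1 and Gpi1 each ranged over at most 1.25-fold. Pkm, the pyruvate kinase of proliferating and adult non-liver cells, was at 1087 CPM in iWAT DFAT cells, 799.7 in eWAT DFAT cells, 633 in iWAT SVF cells and 718 in eWAT SVF cells. Its level in iWAT DFAT cells stood above the other 3 libraries, with a log2 ratio of 0.78 (95% counting interval 0.77 to 0.79) to iWAT SVF cells. Tpi1 (triose phosphate isomerase) had its highest level in the same library, 382 CPM beside 262 to 295, without passing the fold. Eno1 (enolase) was lower in DFAT than in SVF cells without passing the fold, with 429.8 and 454 CPM in DFAT cells and 560.3 and 575 in SVF cells of iWAT and eWAT.

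The enzymes that commit glucose to the pathway differed more between libraries. Hk2, the inducible hexokinase bound to mitochondria, was at 84.8 CPM in iWAT DFAT cells, 47.1 in eWAT DFAT cells, 61.9 in iWAT SVF cells and 47.4 in eWAT SVF cells, while Hk1 ranged only from 29.7 to 39.7 CPM. The 3 phosphofructokinase genes encode subunits of 1 enzyme. Pfkl, the liver-type subunit, was at 70.1 CPM in iWAT DFAT cells, 34.7 in eWAT DFAT cells, 40.03 in iWAT SVF cells and 49.3 in eWAT SVF cells. Pfkp, the platelet-type subunit, was at 26.00 CPM in iWAT DFAT cells, 27.3 in eWAT DFAT cells, 43.5 in iWAT SVF cells and 50.6 in eWAT SVF cells, so that its level was lower in DFAT cells of either depot, with log2 ratios of -0.74 in iWAT and -0.89 in eWAT. Pfkl made up 66.3% of the phosphofructokinase UMIs of iWAT DFAT cells and 44.5% to 51.02% of those of the other libraries. Pfkfb3, which makes the allosteric activator of phosphofructokinase, was highest in eWAT DFAT cells at 11.3 CPM and lay between 6.03 and 7.64 in the other libraries.

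Reads of some of these enzymes can be shared with copies. Eno1b, a gene nearly identical to Eno1, was at 4.26 to 9.10 CPM, and Gapdhs, Pgk2 and the aldolase retrogenes Aldoart1 and Aldoart2 were below 1 CPM in every library.

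Of the 4 genes of the lactate and pyruvate branch, Slc16a1 and Pdk1 passed the fold between the depots in DFAT cells, and Ldha and Slc16a3 did not. Ldha, which reduces pyruvate to lactate, was at 969 CPM in iWAT DFAT cells, 951 in eWAT DFAT cells, 740.2 in iWAT SVF cells and 759 in eWAT SVF cells, a difference of 0.39 and 0.32 in log2 between DFAT and SVF cells of iWAT and of eWAT. Slc16a1 (MCT1), a transporter that moves lactate in either direction, was at 68.3 CPM in iWAT DFAT cells, 15.1 in eWAT DFAT cells, 12.5 in iWAT SVF cells and 10.3 in eWAT SVF cells. The iWAT DFAT library alone was high and the other 3 lay from 10.3 to 15.1 CPM. The log2 ratios of that library were 2.18 (95% counting interval 2.12 to 2.24) to eWAT DFAT cells and 2.45 (95% counting interval 2.38 to 2.51) to iWAT SVF cells. Without cells with markers of another type, Slc16a1 was also higher past the fold in DFAT than in SVF cells of eWAT. In that setting it was higher past the fold in iWAT than in eWAT SVF cells too. Slc16a3 (MCT4), the exporter of strongly glycolytic cells, was higher in DFAT than in SVF cells of both depots, at 33.98 CPM in iWAT DFAT cells, 42.1 in eWAT DFAT cells, 15.4 in iWAT SVF cells and 20.3 in eWAT SVF cells. The log2 ratio of DFAT to SVF cells was 1.14 in iWAT and 1.05 in eWAT. Slc16a1 was therefore 66.8% of the UMIs of the pair in iWAT DFAT cells and 26.4% in eWAT DFAT cells. Pdk1, a kinase that inhibits pyruvate dehydrogenase, was at 13.6 CPM in iWAT DFAT cells, 4.25 in eWAT DFAT cells, 6.70 in iWAT SVF cells and 4.97 in eWAT SVF cells. Its level in iWAT DFAT cells was 3.20-fold that of eWAT DFAT cells and 2.03-fold that of iWAT SVF cells.

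**Figure D3:**
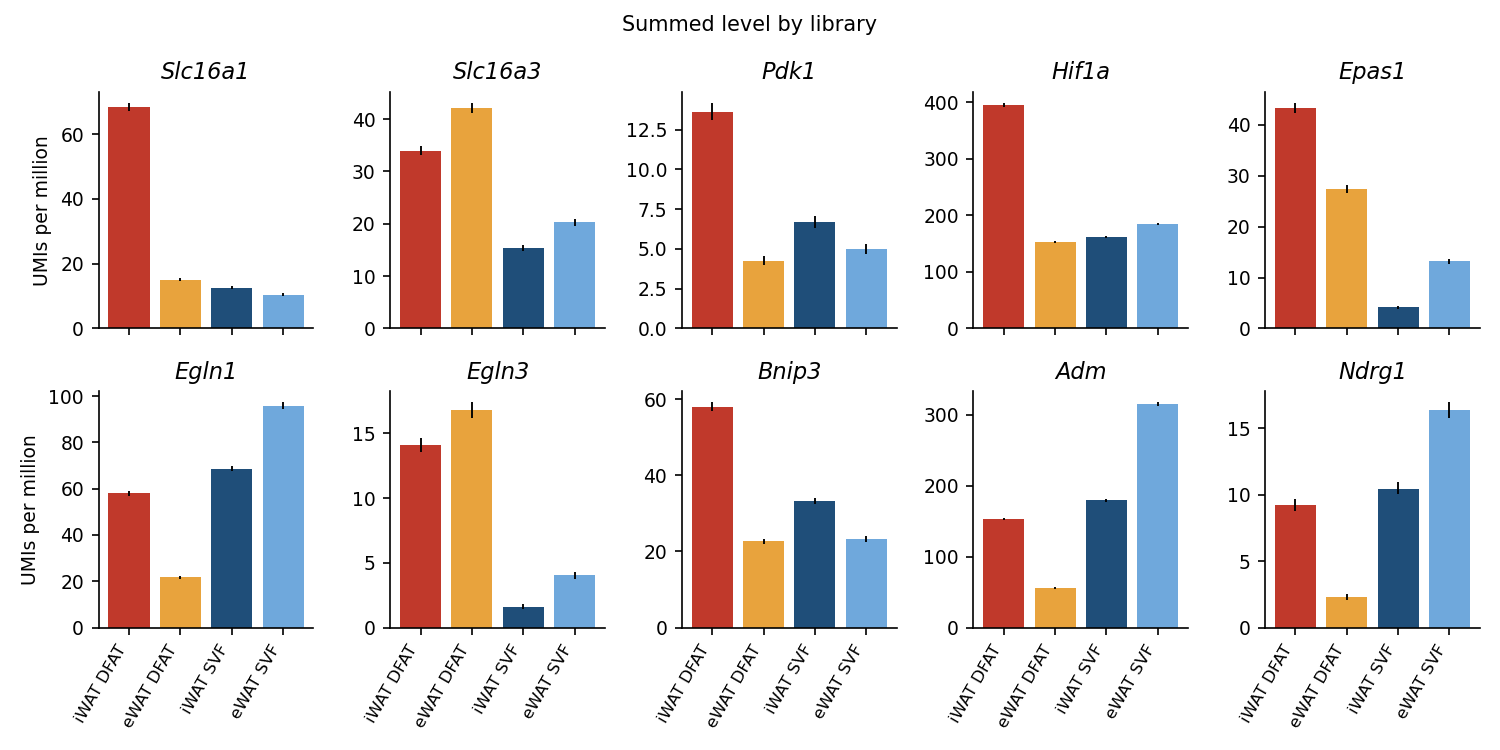
Summed level in CPM (linear axes from 0) of 10 genes in the 4 libraries, with 95% Poisson intervals. Slc16a1, Pdk1, Hif1a and Bnip3 were highest in iWAT DFAT cells, Slc16a3 and Egln3 were higher in both DFAT libraries than in both SVF libraries, and Egln1, Adm and Ndrg1 were lowest in eWAT DFAT cells.

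Hif1a, the alpha subunit found in most cell types, was at 395 CPM in iWAT DFAT cells, 154 in eWAT DFAT cells, 162 in iWAT SVF cells and 185 in eWAT SVF cells. The other libraries lay close together, and iWAT DFAT cells exceeded them, by 2.57-fold over eWAT DFAT cells and 2.43-fold over iWAT SVF cells. Epas1, the alpha subunit of HIF-2, known for its high level in endothelium, was at 43.3 CPM in iWAT DFAT cells, 27.4 in eWAT DFAT cells, 4.12 in iWAT SVF cells and 13.2 in eWAT SVF cells. Both DFAT libraries were above both SVF libraries, with log2 ratios of DFAT to SVF cells of 3.39 in iWAT and 1.06 (95% counting interval 0.99 to 1.13) in eWAT. Its depot contrast had opposite signs in the 2 ways of culture, 0.66 in DFAT cells and -1.68 in SVF cells. Epas1 was lower in deeper DFAT cells, and iWAT DFAT cells were shallower than eWAT DFAT cells. Among the 20% of cells with the fewest UMIs, with medians of 13719 and 13334.5, it was at 76.4 CPM in iWAT and 70.9 in eWAT DFAT cells. In parts with medians of 22108.5 and 21710.0 UMIs it was at 49.3 and 34.1 CPM, and in parts with 27361 and 27420.0 at 32.1 and 26.6, so the depot contrast of DFAT cells was under the fold at each of these like depths. These parts were cut from all cells. Over all depths, without cells with markers of another type, the log2 ratio was 0.95. The depot contrast at like depths without those cells was not measured. In eWAT, the step from SVF to DFAT cells was smaller in deeper cells than in the shallowest. Among the 20% with the fewest UMIs, Epas1 was at 70.9 CPM in eWAT DFAT and 14.3 in eWAT SVF cells. In parts with medians of 27420 and 27617 UMIs it was at 26.6 and 12.6 CPM. In parts with 34239 and 33750 UMIs it was at 18.6 and 13.4, and in those with the most UMIs at 19.6 and 12.7.

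The prolyl hydroxylases, both of them targets of HIF as well as its brakes, did not share an order. Egln1 (PHD2), the main oxygen sensor, was at 57.96 CPM in iWAT DFAT cells, 21.7 in eWAT DFAT cells, 68.6 in iWAT SVF cells and 95.9 in eWAT SVF cells. The eWAT DFAT library stood apart as the lowest, 4.43-fold below eWAT SVF cells and 2.68-fold below iWAT DFAT cells. Egln3 (PHD3) was at 14.1 CPM in iWAT DFAT cells, 16.8 in eWAT DFAT cells, 1.62 in iWAT SVF cells and 4.04 in eWAT SVF cells. DFAT cells held 8.74-fold the level of SVF cells in iWAT and 4.16-fold in eWAT. Egln2, a family member outside the 34 genes and not a usual target of HIF, ranged only from 36.2 to 46.3 CPM. Egln3 thus made up 12.1% and 22.5% of the EGLN UMIs of iWAT and eWAT DFAT cells and 1.47% and 2.76% of those of the SVF cells.

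Among the hypoxia response genes, the mitophagy receptors Bnip3 and Bnip3l were both highest in iWAT DFAT cells. Bnip3 was at 58.05 CPM in iWAT DFAT cells, 22.7 in eWAT DFAT cells, 33.2 in iWAT SVF cells and 23.3 in eWAT SVF cells. Bnip3l was at 149 CPM in iWAT DFAT cells, 85.8 in eWAT DFAT cells, 88.9 in iWAT SVF cells and 96.9 in eWAT SVF cells. Neither gene passed the fold between eWAT DFAT and eWAT SVF cells, and the depot contrast of DFAT cells was 1.36 and 0.80 in log2.

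Adm, Ndrg1 and Ankrd37 were lowest in eWAT DFAT cells. Adm, which encodes the vasodilator peptide adrenomedullin, was at 153 CPM in iWAT DFAT cells, 56.1 in eWAT DFAT cells, 179 in iWAT SVF cells and 315 in eWAT SVF cells, a log2 ratio of DFAT to SVF cells of -2.49 (95% counting interval -2.52 to -2.46) in eWAT and -0.23 in iWAT. Ndrg1, a gene of cell differentiation and stress, was at 9.19 CPM in iWAT DFAT cells, 2.30 in eWAT DFAT cells, 10.5 in iWAT SVF cells and 16.4 in eWAT SVF cells, with -2.83 (95% counting interval -2.98 to -2.68) in eWAT and -0.19 in iWAT. In the depot contrast both genes had opposite signs in the 2 ways of culture, 1.45 and 2.00 in DFAT cells and -0.81 and -0.65 in SVF cells. Ankrd37 was a scarce transcript, from 2.45 CPM in eWAT DFAT cells to 5.25 in iWAT DFAT cells.

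Vegfa, Ddit4 and Kdm3a had their highest levels in iWAT DFAT cells. Vegfa, the main growth factor for endothelium, was at 113 CPM in iWAT DFAT cells, 79.8 in eWAT DFAT cells, 69.7 in iWAT SVF cells and 52.9 in eWAT SVF cells. Its call in iWAT was lost relative to genes of the same intron-length class, at a log2 ratio of 0.58. The call in eWAT was lost under 4 of 10 alternatives, with log2 ratios down to 0.50. The level of Vegfa was higher in the free RNA of droplets with 1 to 100 UMIs than in the cells of every library, at 171 CPM for iWAT DFAT, 117 for eWAT DFAT, 119 for iWAT SVF and 107 for eWAT SVF. The part of free RNA in the Vegfa level of cells was measured only by subtracting it at 5%, which left its log2 ratio of DFAT to SVF cells at 0.72 in iWAT and 0.64 in eWAT. Ddit4 (REDD1), an inhibitor of mTORC1 under stress, was at 42.9 CPM in iWAT DFAT cells, 21.3 in eWAT DFAT cells, 17.3 in iWAT SVF cells and 12.9 in eWAT SVF cells, and was likewise more abundant in free RNA, from 15.8 to 60.03 CPM. Kdm3a, an oxygen-dependent histone demethylase, was at 21.8 CPM in iWAT DFAT cells and at 13.9 to 14.2 in the others, and its ratios were under the fold with median-ratio scaling and relative to genes of the same intron-length class.

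Higd1a and Car9 were called in none of the 4 comparisons. Higd1a, a mitochondrial protein of the hypoxia response, was at 185 CPM in iWAT DFAT cells, 182 in eWAT DFAT cells, 203 in iWAT SVF cells and 170.3 in eWAT SVF cells, a range of 1.19-fold. Car9, a carbonic anhydrase often used as a marker of hypoxic tissue, was at 0.147 CPM in iWAT DFAT cells, 0.523 in eWAT DFAT cells, 0.416 in iWAT SVF cells and 0.552 in eWAT SVF cells, from 27 UMIs in the iWAT DFAT library to 109 in the eWAT SVF library, and was too scarce for a call.

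Small groups of cells with markers of other types moved with several of these levels. Cells with 3 or more of 6 markers of endothelial, mesothelial, immune, pericyte, adipocyte or glial cells numbered 65 of 7629 in iWAT DFAT, 415 of 6464 in eWAT DFAT, 232 of 7424 in iWAT SVF and 732 of 6745 in eWAT SVF. Epas1 was at 208 CPM in the 148 cells with endothelial markers of the eWAT DFAT library and at 294 in its 66 cells with pericyte markers, beside 22.1 in cells with none of these. In the iWAT SVF library it was at 75.9 CPM in 57 cells with endothelial markers and at 3.47 in cells with none. Epas1 was near the bottom of its range, at 2.72 and 3.05 CPM, in the cells with mesothelial markers of the eWAT DFAT and eWAT SVF libraries. Without all these cells the log2 ratio of Epas1 was 0.95 for iWAT against eWAT DFAT cells and -1.93 for SVF cells, so that the opposite signs were still there.

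Ndrg1 was also higher in cells with endothelial or mesothelial markers. It was at 56.3 CPM in 547 cells with mesothelial markers and 74.3 in 154 cells with endothelial markers of the eWAT SVF library, beside 12.2 in cells with none. Without them its log2 ratio of iWAT to eWAT SVF cells was -0.34, under the fold, and that of iWAT to eWAT DFAT cells was 2.54. Adm was higher in cells with endothelial markers (484 CPM in eWAT SVF) and lower in cells with mesothelial markers (135) than in the rest (327), and its ratios kept their sign and their side of the fold without them. Egln3 was at 16.8 CPM in cells with mesothelial markers and 2.83 in the rest of the eWAT SVF library, and in eWAT its log2 ratio of DFAT to SVF cells was 2.53 without them. Slc16a1 was at 37.6 CPM in the same mesothelial-marker cells and at 8.18 in the rest.

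**Figure D4:**
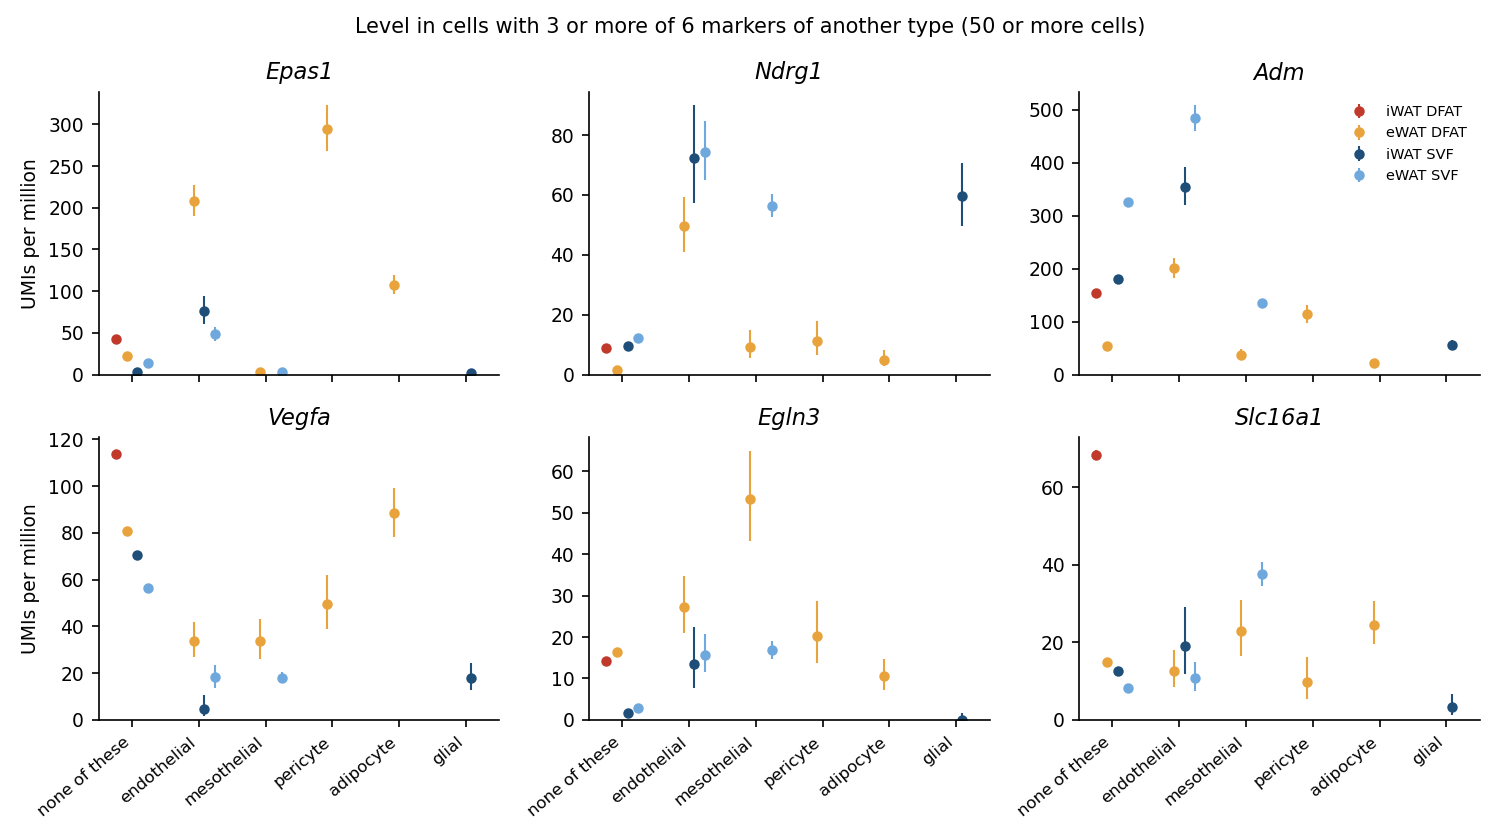
Level in CPM of 6 genes in cells with 3 or more of 6 markers of another type and in cells with none of these, for groups of 50 or more cells, with 95% Poisson intervals and 1 colour per library. Epas1 reached 208 and 294 CPM in endothelial-marker and pericyte-marker cells of eWAT DFAT, and Ndrg1 reached 74.3 CPM in endothelial-marker cells of eWAT SVF.

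Cycling cells, those with 3 or more of 10 G2 and M phase genes after thinning to 5000 UMIs, made up 36.3% of iWAT DFAT, 43.2% of eWAT DFAT, 39.1% of iWAT SVF and 28.7% of eWAT SVF cells. Of the 34 genes, 27 reached the minimum level in all 4 libraries and none was past the fold in either direction in all 4 libraries between cycling and other cells, beside 5.88% of genes higher and 0.487% lower. By any amount, 15 of the 27 were lower and 3 were higher in cycling cells in all 4 libraries. Of the 9236 genes tested, 2745 were lower and 3713 higher in this way. Epas1 was lower in cycling cells, with log2 ratios of -1.07, -1.02, -0.46 and -0.22 in iWAT DFAT, eWAT DFAT, iWAT SVF and eWAT SVF. Ndrg1 was at -0.87 in iWAT DFAT, -0.98 in eWAT DFAT, -0.31 in iWAT SVF and -0.37 in eWAT SVF. Epas1 in iWAT SVF and Ndrg1 in eWAT DFAT were below the minimum level in this comparison. Cycling cells were also deeper, with a median of 26459 against 20394 UMIs in iWAT DFAT, and both genes were lower in deeper cells. From the 20% of cells with the fewest UMIs to the 20% with the most, Epas1 went from 76.4 to 27.1 CPM in iWAT DFAT and from 70.9 to 19.6 in eWAT DFAT, and Ndrg1 from 18.00 to 5.87 and from 9.54 to 1.06. The part of depth in the difference between cycling and other cells was not tested. Bnip3l ranged from -0.61 to -0.44. Gapdh, by contrast, ranged from -0.06 to 0.07 and Ldha from -0.07 to 0.07.

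Glycolytic transcripts varied between cells of the same library, and a few hypoxia genes varied with them. After thinning each cell to 5000 UMIs, the 14 enzymes and Ldha summed to a median of 33, 32, 29 and 30 UMIs per cell in iWAT DFAT, eWAT DFAT, iWAT SVF and eWAT SVF, with a variance 3.66 to 4.57 times the mean. Cells of each library were ordered by that sum, and the 20% with the highest sum were compared with the 20% with the lowest for genes that did not enter the sum. These 2 ends are cuts of a continuous range and not cell types, and the mean sum was 51.5 UMIs at the high end and 19.6 at the low end in iWAT DFAT cells. Median depth was higher at the glycolytic end in eWAT SVF cells, 28318 against 24300 UMIs, and lower in iWAT DFAT cells, 20028.5 against 21103. Cycling cells made up 35.8% of the high and 29.8% of the low end in iWAT DFAT, and 35.6% and 44.2% in eWAT DFAT. The part of depth and cycling in this result was not tested beyond the alternatives of the closing section.

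Of the 19 genes of the 34 that did not enter the sum, 13 reached the minimum level in all 4 libraries, and 4 of them were higher past the fold at the glycolytic end in all 4. They were Slc16a3, Bnip3, Pdk1 and Higd1a. Slc16a3 and Pdk1 were called in each of 3 subsets of cells tried, whereas Bnip3 was not called without cycling cells and Higd1a was not called without cells with markers of another type or among cells of middle depth. Of 9258 genes tested only 13 were higher past the fold in all 4 libraries, which is 0.14%, and 3.63% were lower. None of the 13 was lower past the fold in all 4. Slc16a3 had the largest fold of these 4 in every library, from the lowest to the highest 20% of cells 13.5 to 67.8 CPM in iWAT DFAT, 26.3 to 68.5 in eWAT DFAT, 6.23 to 30.7 in iWAT SVF and 6.29 to 43.7 in eWAT SVF. Bnip3 went from 37.98 to 96.7 CPM in iWAT DFAT, 22.4 to 36.7 in eWAT DFAT, 18.2 to 59.1 in iWAT SVF and 13.8 to 42.3 in eWAT SVF. Its step was thus smallest in eWAT DFAT cells, as was that of Higd1a, with a log2 ratio of 0.60 there and 1.02 to 1.31 elsewhere. Pdk1 had log2 ratios of 1.32, 0.86, 1.26 and 0.90 in the same order of libraries, at levels near the minimum. It went from 8.68 to 21.6 CPM in iWAT DFAT and from 3.39 to 6.16 in eWAT DFAT. In iWAT SVF it went from 4.14 to 9.93 CPM and in eWAT SVF from 4.12 to 7.70. Outside iWAT DFAT, Pdk1 thus reached 5 CPM at the high end and not at the low end.

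Other genes that set the libraries apart were not higher past the fold at the glycolytic end in all 4 libraries. Slc16a1, which of the 34 genes had the widest depot contrast in DFAT cells with all cells counted, had log2 ratios between the ends of 0.05 in iWAT DFAT, -0.50 in eWAT DFAT, -0.16 in iWAT SVF and -1.20 in eWAT SVF. Hif1a lay between -0.04 and 0.23, and Vegfa between -0.22 and -0.15. Egln1 was 1.04 in iWAT DFAT cells but 0.18 in eWAT DFAT cells, the library where its level was lowest. Outside the 34 genes, Mif and Fam162a, of 27 other hypoxia response genes at the minimum level, and Eno3, of 7 other glycolysis genes, were higher past the fold at the glycolytic end in all 4 libraries. Lower past the fold there in all 4 were Rora of the same hypoxia list and Pfkfb4 of the same glycolysis list. Arnt2, of 11 other regulators of the HIF pathway at the minimum level, was also lower. The rest of the 13 genes higher past the fold at the glycolytic end in all 4 libraries were on none of these lists. They were Tuba4a, Acta1, Grhpr, Prelid2, Ndufa4l2 and Apln.

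**Figure D5:**
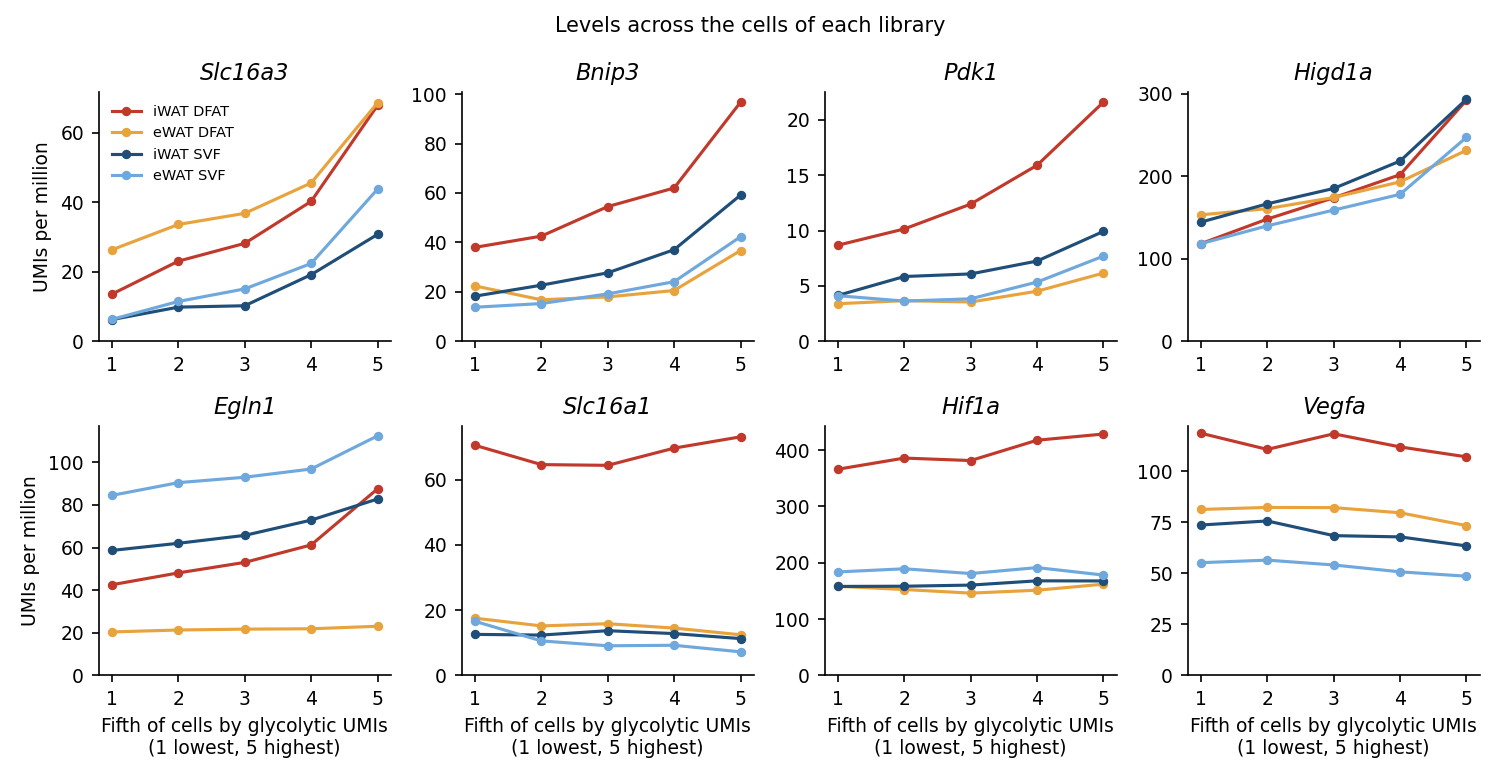
Level in CPM of 8 genes across the cells of each library, divided into 5 equal parts by the thinned UMIs of the 14 glycolytic enzymes and Ldha. Each line is 1 library. Slc16a3, Bnip3, Pdk1 and Higd1a were higher in part 5 than in part 1 in all 4 libraries, while Slc16a1, Hif1a and Vegfa stayed nearly level or went lower.

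Adm varied between cells at a fixed depth by more than counting alone gives. Its ratio of variance to mean was 2.45, 2.31, 2.60 and 3.51 in iWAT DFAT, eWAT DFAT, iWAT SVF and eWAT SVF, where a value of 1 is that of counting alone. This ratio moves with the level of a gene, so it was not compared between genes. Values above 1 were not particular to Adm, since Gapdh had 2.04 to 2.49 and Ldha 1.57 to 1.78 over the libraries.

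Promoters are shown for the 4 genes that varied with the glycolytic enzymes between cells, and for Slc16a1, Hif1a, Egln3 and Adm, whose levels set libraries apart. The core of the hypoxia response element is ACGTG or GCGTG, and both were searched on both strands of windows from 250 bases before to 50 bases after RefSeq starts in GRCm38.p6; a match within CACGTG counts on both strands. Windows were found for 30 of the 34 genes, and Slc2a3, Epas1, Bnip3l and Ndrg1 were without one. At least 1 match was present in 28 of the 30 genes (93.3%), beside 69.6% of the 8536 genes with a window that reached 5 CPM in a library and 46.7% of all 27025 genes with a window. The letters ACGTG alone were found in 73.3% of the genes, beside 30.1% and 21.8%, and GCGTG in 66.7%, beside 58.0% and 35.2%. The 30 genes had 45 windows, and genes with several windows have more chances of a match. Per window, either motif was found in 77.8%, beside 63.1% for genes that reached 5 CPM and 43.8% for all, ACGTG in 55.6%, beside 25.8% and 19.6%, and GCGTG in 53.3%, beside 51.6% and 32.4%. The genes were listed partly as known targets of HIF, and a match is no proof of a site. Each stretch ends before the start and is given 5′ to 3′ on the strand of its gene, with matches in capitals, where CACGC is GCGTG read on the opposite strand. Further matches lie outside the stretches shown for Bnip3, Pdk1, Higd1a, Slc16a1, Hif1a and Adm.
Slc16a3: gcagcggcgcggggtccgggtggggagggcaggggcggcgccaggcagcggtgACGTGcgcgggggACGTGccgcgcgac
Bnip3: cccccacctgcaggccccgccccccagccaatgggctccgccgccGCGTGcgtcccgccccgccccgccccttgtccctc
Pdk1: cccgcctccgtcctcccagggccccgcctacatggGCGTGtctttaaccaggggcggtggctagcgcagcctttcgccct
Higd1a: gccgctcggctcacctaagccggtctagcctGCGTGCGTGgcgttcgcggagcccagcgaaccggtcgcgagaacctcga
Slc16a1: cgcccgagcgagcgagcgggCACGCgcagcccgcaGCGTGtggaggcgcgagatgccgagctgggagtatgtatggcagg
Hif1a: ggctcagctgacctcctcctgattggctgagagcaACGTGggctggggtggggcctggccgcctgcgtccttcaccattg
Egln3: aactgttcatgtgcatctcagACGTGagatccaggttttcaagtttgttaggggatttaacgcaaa
Adm: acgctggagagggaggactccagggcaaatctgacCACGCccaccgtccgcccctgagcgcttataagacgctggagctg
The stretches lie at chr11:120948987-120949066, plus strand for Slc16a3, at chr7:138909507-138909586, minus strand for Bnip3, at chr2:71873111-71873190, plus strand for Pdk1 and at chr9:121857818-121857897, minus strand for Higd1a. Those of the other genes lie at chr3:104638495-104638574, plus strand for Slc16a1, at chr12:73907762-73907841, plus strand for Hif1a, at chr12:54204059-54204124, minus strand for Egln3 and at chr7:110627568-110627647, plus strand for Adm. Slc16a3 held 2 matches within 27 bases of its start, and Higd1a held 2 that overlap. Matches were present upstream both of the genes that varied with the glycolytic enzymes and of those that did not.

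Genes of the neighbouring routes were read from lists of related genes, and their counts stand beside the shares of all genes tested, which were 18.4% higher and 10.1% lower in DFAT than in SVF cells of iWAT and 15.0% and 13.1% in eWAT. In the pentose phosphate pathway, 3 of the 8 genes at the minimum level were higher in DFAT than in SVF cells of iWAT and 3 of 7 in eWAT, and none was lower. G6pdx, its entry enzyme, was at 79.97 CPM in iWAT DFAT cells, 79.8 in eWAT DFAT cells, 44.3 in iWAT SVF cells and 33.2 in eWAT SVF cells, and Pgd at 250.4 CPM in iWAT DFAT cells, 264 in eWAT DFAT cells, 131 in iWAT SVF cells and 115 in eWAT SVF cells. Taldo1 (transaldolase) passed the fold only in eWAT, with a log2 ratio of 1.02 beside 0.34 in iWAT.

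In the list of glycogen and side branches, 13 of 16 genes reached the minimum level, of which 3 were higher and 4 lower in DFAT than in SVF cells of iWAT, and 1 was higher and 3 lower in eWAT. The 1 higher gene in eWAT is a smaller share than that of all genes. Gfpt2, which feeds the hexosamine route, stood out in iWAT DFAT cells, at 159 CPM in iWAT DFAT cells, 20.2 in eWAT DFAT cells, 19.8 in iWAT SVF cells and 26.5 in eWAT SVF cells. Gbe1, the glycogen branching enzyme, was higher in DFAT cells of either depot, with 72.9 and 109.5 CPM beside 19.6 and 22.7 in SVF cells. Phgdh, the first enzyme of serine synthesis from glycolysis, was lower in DFAT cells of either depot, at 59.6 CPM in iWAT DFAT cells, 106 in eWAT DFAT cells, 278 in iWAT SVF cells and 336 in eWAT SVF cells. Of the 13 genes of pyruvate dehydrogenase and pyruvate entry, 11 reached the minimum level in iWAT and 10 in eWAT, and 2 were higher in DFAT cells in each depot, a share near that of all genes, and none was lower. Pcx (pyruvate carboxylase) had log2 ratios of 2.04 in iWAT and 1.78 in eWAT.

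Of 22 other glycolysis genes, 10 reached the minimum level in these comparisons, of which 1 was higher and 1 lower in DFAT than in SVF cells of iWAT, and 4 were higher and 3 lower in eWAT. Eno3, the muscle enolase, was at 6.81 CPM in iWAT DFAT cells, 24.9 in eWAT DFAT cells, 72.2 in iWAT SVF cells and 120.3 in eWAT SVF cells, and its share of the enolase UMIs went from 1.52% in iWAT DFAT cells to 17.1% in eWAT SVF cells. Ldhb, the lactate dehydrogenase subunit that favours lactate use, was highest in eWAT SVF cells at 57.2 CPM and lay between 16.5 and 33.2 in the others.

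Of the 32 other hypoxia response genes, 28 reached the minimum level among DFAT cells, of which 8 were higher and 4 lower in iWAT than in eWAT, beside 17.6% and 9.1% of all genes. In the other 3 comparisons 30 reached it. None was higher and 3 were lower in iWAT than in eWAT SVF cells, beside 7.25% and 7.44% of all genes. In DFAT against SVF cells, 12 were higher and 6 lower in iWAT, and 8 were higher and 6 lower in eWAT. Lox, the collagen cross-linking oxidase, was lower in DFAT than in SVF cells of either depot, at 777 CPM in iWAT DFAT cells, 352 in eWAT DFAT cells, 1636 in iWAT SVF cells and 1365 in eWAT SVF cells. Hmox1 (heme oxygenase 1), also a target of NRF2, was highest in eWAT DFAT cells, at 715 CPM beside 119 in iWAT DFAT cells. Errfi1, a feedback inhibitor of the EGF receptor, was highest in iWAT DFAT cells at 305 CPM beside 52.6 to 109. Of 12 other regulators of the HIF pathway, 11 reached the minimum level, and 2 were higher and 1 lower in iWAT than in eWAT DFAT cells, shares near those of all genes. Arnt, the partner of both alpha subunits, was at 43.7 CPM in iWAT DFAT cells, 25.8 in eWAT DFAT cells, 32.2 in iWAT SVF cells and 28.5 in eWAT SVF cells, and Cited2, which competes with HIF for its coactivator, was lowest in iWAT DFAT cells at 94.7 CPM beside 184 to 226. Among 8 glucose-responsive and MYC genes, 6 reached the minimum level, of which 1 was higher and 2 lower in iWAT than in eWAT DFAT cells, and Txnip, which rises with cellular glucose, was at 8.44 CPM in iWAT DFAT cells, 46.7 in eWAT DFAT cells, 28.9 in iWAT SVF cells and 56.4 in eWAT SVF cells.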

How the data were processed

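Droplet libraries of the 10x Genomics 3′ chemistry were analysed for 4 samples, 1 per group. The deposited tables hold raw UMI counts per gene and barcode for all barcodes, made by the authors with Cell Ranger on mm10; the submitters' processing notes name version 7.0.0, whereas the file headers name 7.1.0 for 3 libraries and Cell Ranger 4 for the iWAT SVF library. Per the methods, introns were counted and CellBender, DoubletFinder and Harmony followed; these steps are not part of the counts used here. Whether introns were also counted for the iWAT SVF library is uncertain from its header. Genes with 100000 or more intron bases had a median log2 ratio of 0.13 for iWAT against eWAT SVF cells and of 0.32 for DFAT against SVF cells of iWAT, and every ratio with that library carries this limit. A UMI is a tag that marks 1 captured molecule.

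Cells were kept with 5000 to 75000 UMIs, 200 to 7500 genes and under 10% mitochondrial UMIs. UMIs were summed per library (183664704 to 199357348) and divided by the total. Ratios carry exact conditional binomial intervals and levels exact Poisson intervals at 95%. A call needed 1.5-fold and 5 CPM in the higher library. A count-model test was not run, because each group has 1 library. The function for ratios was tested on simulated counts, and that for thinning was checked on cells of the eWAT DFAT library. To define cycling cells and to order cells by glycolytic UMIs, each cell was thinned to 5000 UMIs, and the levels of the groups of cells were then taken at full depth. Scrublet made 0 to 3 calls per library by its own threshold and so did not work here; the highest-scoring 334 to 466 cells per library were removed only as an alternative. The number of per-sample columns left unused was 0. Scripts ran in Python with scanpy 1.11.5 and scipy 1.17.1. The genes, the lists of related genes and the comparisons were chosen with earlier results of these data known. Genes outside the 34 were named where they had the largest ratios of their list past the fold, up to 5 per list, or as copies or family members of the 34. The genes named at the glycolytic end of cells, and the alternatives for intron length and for subsets of cells there, were chosen after seeing the data.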

Additional observations from a re-analysis of the deposited data

Results flagged for a closer look

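Of the 34 genes, 3 were past the fold in opposite directions in the depot contrast of DFAT cells and in that of SVF cells, higher in iWAT among DFAT cells and lower among SVF cells, beside 1.93% of the 9762 genes tested in both contrasts. The opposite pair of directions was seen in none of the 34 genes and in 0.604% of all genes. The log2 ratio of iWAT to eWAT was 0.66 in DFAT cells and -1.68 in SVF cells for Epas1, a difference of 2.34. For Adm it was 1.45 in DFAT cells and -0.81 in SVF cells, a difference of 2.26. For Ndrg1 it was 2.00 in DFAT cells and -0.65 in SVF cells, a difference of 2.64. None of these differences was tested, since each ratio compares 1 library with 1 library. Epas1 in DFAT cells was under the fold with the mean of CPM per cell (0.49), with median-ratio scaling (0.58) and relative to genes of similar intron length (0.55), and it was 76.4 against 70.9 CPM in the shallowest 20% of iWAT and eWAT DFAT cells. Its log2 ratio in DFAT cells was larger, at 0.95, without cells that hold markers of another type. Ndrg1 in SVF cells was under the fold without cells that hold markers of another type (-0.34).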

How the results depend on the processing

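No paired analysis was run, because each group has 1 library, and no result comes from a test. Over 10 alternatives to the cell filter, doublets, free RNA, scaling, cell weighting, cycling cells, cells of other types and intron length, none of the ratios past the fold changed sign, and 971 of 1360 log2 ratios of the 34 genes stayed within their counting interval. Counts of genes past the fold mostly stayed within 1.5 times. In iWAT against eWAT DFAT cells, the 1 lower gene became 0 without cycling cells, with the mean of CPM per cell, with a minimum of 20 CPM and with a 2-fold limit, and became 2 (Slc2a3 and Pfkfb3) with median-ratio scaling and relative to genes of the same intron-length class. In iWAT against eWAT SVF cells, 1 gene (Slc16a1) was higher without cells with markers of another type, and the 3 lower genes became 1 with a minimum of 20 CPM and 1 with a 2-fold limit. In DFAT against SVF cells of iWAT, a 2-fold limit gave 7 higher and 0 lower genes. In eWAT, 5 genes were higher with a minimum of 20 CPM and 3 with a 2-fold limit. With a 2-fold limit, 1 gene (Slc16a3) in place of 4 was higher at the glycolytic end in all 4 libraries; without cycling cells the 4 were Slc2a1, Slc16a3, Pdk1 and Higd1a, without cells with markers of another type 3 were left (Slc16a3, Pdk1 and Bnip3), and among cells between the 25th and 75th percentile of UMIs the 4 were Slc2a1, Slc16a3, Pdk1 and Bnip3. Shares of cells with a UMI move with depth and were not used for any comparison. Genes below 5 CPM, such as Car9, are limited by their few UMIs. The spread between cultures or mice was not measured by these libraries.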
